A study of Mus musculus with 7 samples.

Results

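The nuclear pore complex is the channel through which all traffic between nucleus and cytoplasm passes, and its subunits are called nucleoporins. Soluble transport receptors carry cargo through it: importins bring proteins in, exportins take proteins and RNAs out, and the small GTPase Ran sets the direction by being bound to GTP in the nucleus and to GDP in the cytoplasm. In mouse embryonic stem cells the make-up of the importin alpha family is known to change as the cells leave pluripotency. Calreticulin folds glycoproteins and stores calcium in the endoplasmic reticulum, and it is known from stem cell-derived cardiac cells to affect the nuclear import of the transcription factor MEF2C.

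The genes were taken by their symbol alone. The rule uses no measured values, but it was set with earlier results of these data known. They comprised every probe set of the array annotated to 1 symbol of the Nup, Kpna, Ipo or Xpo series with a number, or to Kpnb1, Tnpo1, Tnpo2, Tnpo3, Ran, Ranbp1, Rangap1, Rcc1, Cse1l, Pom121, Seh1l, Rae1 or Ndc1. This gave 133 of 45101 probe sets, for 49 of the 18194 genes that the array's annotation names singly, on 16 chromosomes. A probe set is a group of short probes read as 1 signal, and 38 of the genes had several, up to 8 for a single gene. Of the 133, 118 passed the filter on low signals and were tested, and they covered 48 genes. The other 15 had signals between 0.8 and 92.6 and belonged to 11 genes. Kpna7 was left with no tested probe set, and 5 of the 15 belonged to Xpo7.

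RNA came from D3 cells, an established mouse embryonic stem cell line, in 5 libraries with calreticulin knocked out and in 2 wild type libraries, each a pool of replicate cultures that the submitters count as a biological replicate. The labels give no treatment or passage and do not say whether the knockout libraries come from 1 clone, so a p-value here speaks only of the scatter among the 7 libraries, which may be technical. Calr, the targeted gene, had signals of 858, 1055, 1064, 577 and 1006 in knockout libraries 1 to 5, against 12460 and 10840 in wild type libraries (log2 difference -3.68, SE 0.30, limma adjusted p = 0.00595). All 10 stem cell markers examined were above the filter, with summed signals of 80381 to 112543 in knockout libraries and 83531 to 98323 in wild type libraries. Single markers were less even. Pou5f1 had 11549, 4891, 4687, 9115 and 8770 in knockout libraries 1 to 5, against 11726 and 10184 in wild type libraries. Nanog was also lowest in knockout libraries 2 and 3 (4841 and 4601), whereas Tdgf1 was highest there (14287 and 15929). Between the groups 4 of the 10 markers had a negative difference, and the median of the 10 was 0.06. Only Fgf4 had no overlap between the groups, with 5039 to 6215 in knockout libraries, against 2366 and 4991 in wild type libraries. Its difference was 0.67 (limma adjusted p = 0.575), and such a higher group was found at 7.8% of all tested probe sets.

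The array data set knockout libraries 2 and 3 apart from all others. Over all tested probe sets the correlation between this pair was 0.9845. Between either of them and any of the remaining libraries it was 0.843 to 0.902, and among those remaining it was 0.920 to 0.972. These values run across probe sets of shared arrays and are descriptions. For Actb, a control with probe sets at both transcript ends, the 3' end exceeded the 5' end by 0.79 and 0.89 (log2) in knockout libraries 2 and 3, by 1.53, 1.94 and 1.68 in knockout libraries 1, 4 and 5, and by 1.46 and 2.08 in wild type libraries. For Gapdh the same excess was -0.17, -0.31, -0.27, 1.32 and 0.08 in knockout libraries 1 to 5, against -0.04 and 0.77 in wild type libraries, so that there knockout library 4 and wild type library 2 were high. The Lys control had signals of 6749, 15165, 13155, 7884 and 7732 in knockout libraries, against 8508 and 8043 in wild type libraries. Summed over 9 fibroblast markers, signals were 636, 4657, 4362, 1091 and 623 in knockout libraries 1 to 5, against 1428 and 1192 in wild type libraries, with none of the 9 below 20.2 in every library. At every one of them but Thy1 and Lum, knockout libraries 2 and 3 were the 2 highest. Of the 8 fibroblast markers tested, 3 had a negative difference between the groups and 0 passed. Over 8 endoderm markers, of which Afp stayed below 20.2 throughout, the sums were 862 to 1881 in knockout libraries and 1595 to 2530 in wild type libraries. All 6 that were tested had a negative difference between the groups (median -0.69), and 0 passed. Every knockout library was below both wild type libraries at Sox17 (65.2 to 157.6, against 194.9 and 283.2) and Sox7 (42.7 to 122.5, against 151.7 and 243.1). Such a lower group was found at 5.85% of all tested probe sets. Many of the member values below move with knockout libraries 2 and 3, and the part that RNA quality, other cells or the culture played in it was not tested. In bulk RNA, fewer cells of a type and less RNA per cell cannot be told apart.

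No nuclear pore or transport gene passed the test between the groups. With limma across all tested probe sets, 0 of 118 member probe sets reached an adjusted p under 0.05, where 0.0296% of all tested probe sets did. At an unadjusted limma p under 0.05 there were 3 of 118, which is 2.54%, against 8.42% of all tested probe sets. Of the 3, 1 was higher (0.847%, against 5.81%) and 2 were lower (1.69%, against 2.61%), and they were probe sets of Nup62, in either direction, and of Nup85. The smallest adjusted p among the members was 0.575. The members nevertheless leaned towards lower signals: 80 of 118 had a negative difference (67.8%), against 44.1% of all tested probe sets. Their median difference was -0.15 on the log2 scale, and that of all tested probe sets was 0.07, a gap of -0.22 (log2 differences are taken on log2(signal + 20.2), which understates changes of dim probe sets).

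That lean lay mostly in knockout libraries 2 and 3. Taking the probe set with the highest mean signal of each gene, the median of the 48 genes relative to the wild type mean was 0.0014, -0.49, -0.54, 0.03 and -0.09 in knockout libraries 1 to 5, against 0.01 and -0.01 in wild type libraries. All tested probe sets had medians of 0.08, 0.07, 0.14, -0.0032 and 0.07 in the same knockout libraries, against 0.05 and -0.05 in wild type libraries. These include several probe sets of a gene, bright and dim. With 1 probe set per gene throughout, the median difference was -0.22 for the 48 genes and -0.0041 for all genes tested. Knockout libraries 2 and 3 were the 2 lowest of 7 at 56 member probe sets (47.5%), against 21.0% of all tested probe sets. They were the 2 highest at 12 (10.2%), against 27.0%. With both libraries left out, the median difference over the 118 member probe sets was -0.0021, beside 0.03 over all tested probe sets. Over the 48 genes it was -0.04, and again 0 members passed. Of the 48 genes, 11 then turned sign, 25 kept it at a difference smaller by over 1.5 times, 2 kept it at one larger by over 1.5 times, and 10 stayed within that factor. Without wild type library 1 the sign turned for 9 genes, and without wild type library 2 for 7. With quantile normalization the 2 libraries were lowest at 46.6% of member probe sets, against 26.2% of all, and with arrays centred on their medians at 55.9%, against 28.2%.

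**Figure D1:**
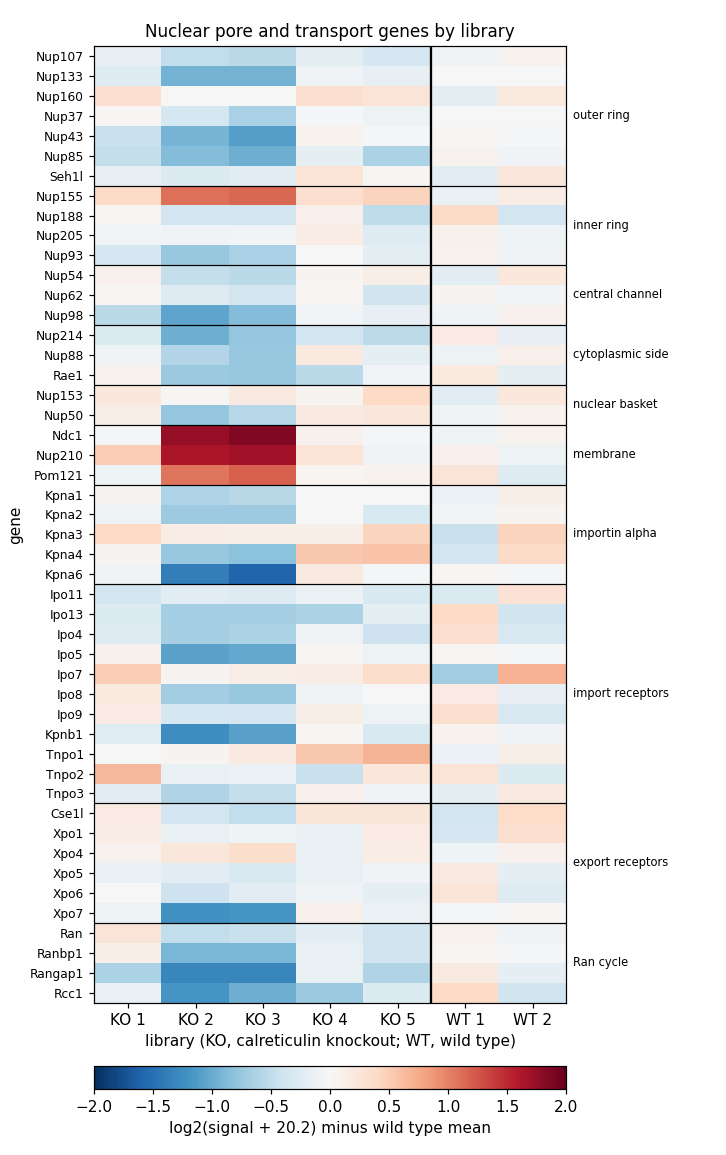
Log2(signal + 20.2) minus the wild type mean for the 48 tested genes (rows, grouped by role) in 5 knockout (KO) and 2 wild type (WT) libraries; red is above and blue below the wild type mean, with the colour scale ending at 2 and -2. Blue fills most of the columns of knockout libraries 2 and 3, where the medians were -0.49 and -0.54, while Ndc1, Nup210, Pom121 and Nup155 are red there.

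**Figure D2:**
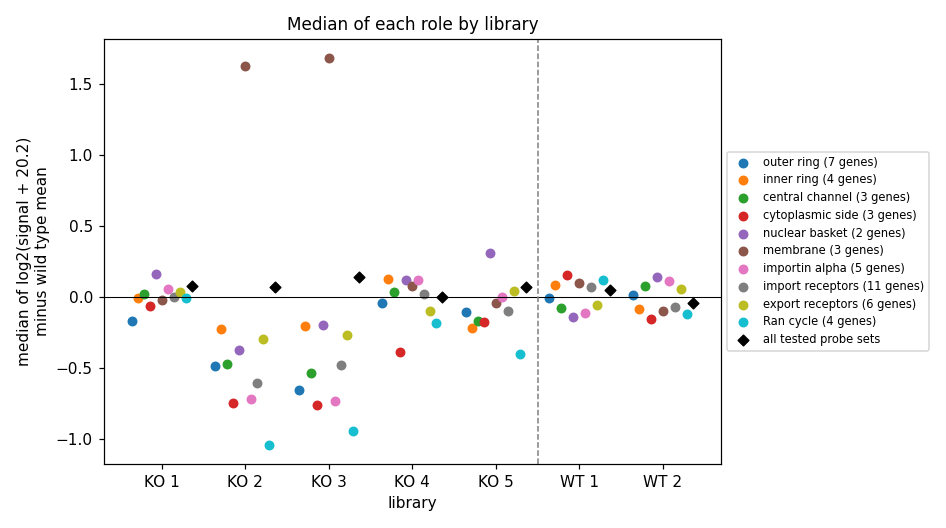
Median over the genes of each role, relative to the wild type mean on the log2(signal + 20.2) scale, in each library; black diamonds are all tested probe sets. In knockout libraries 2 and 3 the membrane nucleoporins stand at 1.63 and 1.68 and the Ran cycle genes at -1.04 and -0.94, and in the other libraries no role lies below -0.40 or above 0.31.

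The membrane nucleoporins, which anchor the pore in the nuclear envelope, went the other way. Ndc1 encodes a transmembrane nucleoporin needed for pore assembly. Its probe set had signals of 1461, 5024, 5402, 1566 and 1440 in knockout libraries 1 to 5, against 1408 and 1558 in wild type libraries. Only knockout libraries 2 and 3 were high, while libraries 1 and 5 lay between the wild type libraries and library 4 just above them. The difference was 0.72 (SE 0.58, 95% interval -0.58 to 2.03, limma adjusted p = 0.649).

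The other probe sets of Ndc1 were high in the same libraries. One had 750, 2926, 2943, 751 and 761 in knockout libraries, against 1020 and 835 in wild type libraries, so that knockout libraries 1, 4 and 5 were below both wild type libraries there. The last had 536, 1571, 2022, 168 and 288, against 234 and 159 in wild type libraries, and gave the largest positive difference of any tested member (1.58, SE 0.84, limma adjusted p = 0.575).

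Pom121, a transmembrane nucleoporin that also carries FG repeats, had signals of 2871, 6418, 6970, 3129 and 3191 in knockout libraries, against 3664 and 2535 in wild type libraries. Knockout libraries 2 and 3 were above all others and the rest overlapped (0.45, SE 0.41, limma adjusted p = 0.682). Nup210, a transmembrane nucleoporin known from mouse cells to be needed for muscle and neural differentiation, had 1555, 3437, 3571, 1330 and 1045, against 1179 and 1024 in wild type libraries. Knockout libraries 1 to 4 lay above both wild type libraries and knockout library 5 between them (0.80, SE 0.50, limma adjusted p = 0.587). Over these 3 genes all 6 tested probe sets had knockout libraries 2 and 3 as the 2 highest of 7, with a median difference of 0.73. Without those 2 libraries the median was 0.07 and 5 of 6 were positive. In RefSeq the span of Pom121 overlaps those of Nsun5 and Mir7033, and the span of Nup210 overlaps that of Gm30364. Which transcripts the probe sets of Pom121 and Nup210 read was not tested. The per-library values of Ndc1 and Nup210, like those of Kpnb1 and other genes outside the naming rule, were chosen after they were seen.

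**Figure D3:**
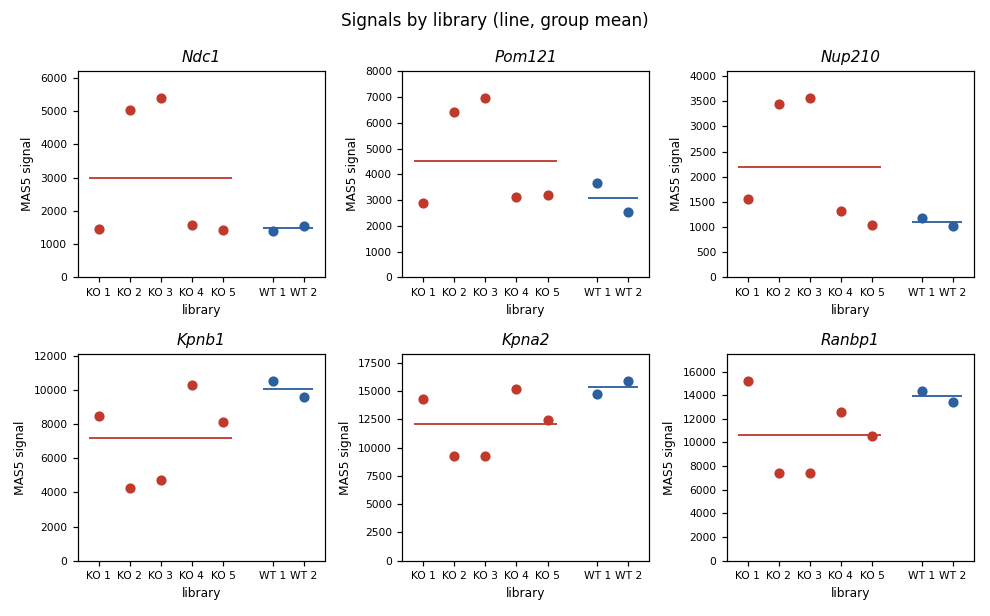
MAS5 signal of 1 probe set each of Ndc1, Pom121, Nup210, Kpnb1, Kpna2 and Ranbp1 in 5 knockout libraries (red) and 2 wild type libraries (blue); lines are group means and every axis starts at 0. Knockout libraries 2 and 3 are the 2 highest points in the upper row (5024 and 5402 for Ndc1) and the 2 lowest in the lower row (4252 and 4717 for Kpnb1).

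The promoter windows of these 3 membrane nucleoporins and of Kpnb1, which was low in the same 2 libraries, show the sequence at their starts. Each runs from 250 bases before to 50 after the start of the gene in RefSeq (GRCm38.p6), 5′ to 3′ on the gene's strand. Capitals mark matches, on both strands, to the CCAAT box (CCAAT), the GC box (GGGCGG), the E-box (CACGTG), the core of the NRF1 site (TGCGCA), the TATA box (TATAAA) or the ER stress element (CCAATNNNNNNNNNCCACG, which contains the CCAAT box). The windows lie at chr4:107367797-107368096 (plus strand) for Ndc1, chr5:135394497-135394796 (minus) for Pom121, chr6:91116777-91117076 (minus) for Nup210 and chr11:97187843-97188142 (minus) for Kpnb1.
Ndc1: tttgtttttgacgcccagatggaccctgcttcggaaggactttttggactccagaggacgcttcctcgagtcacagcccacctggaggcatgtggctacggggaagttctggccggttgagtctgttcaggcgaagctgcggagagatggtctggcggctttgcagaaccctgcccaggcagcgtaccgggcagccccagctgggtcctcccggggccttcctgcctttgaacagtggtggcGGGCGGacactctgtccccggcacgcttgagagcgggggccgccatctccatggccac
Pom121: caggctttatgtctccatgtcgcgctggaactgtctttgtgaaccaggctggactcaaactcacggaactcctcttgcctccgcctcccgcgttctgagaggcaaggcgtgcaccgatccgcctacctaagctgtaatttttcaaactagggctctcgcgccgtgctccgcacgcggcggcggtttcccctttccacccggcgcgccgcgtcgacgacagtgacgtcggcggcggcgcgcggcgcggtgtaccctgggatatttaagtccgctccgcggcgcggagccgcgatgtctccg
Nup210: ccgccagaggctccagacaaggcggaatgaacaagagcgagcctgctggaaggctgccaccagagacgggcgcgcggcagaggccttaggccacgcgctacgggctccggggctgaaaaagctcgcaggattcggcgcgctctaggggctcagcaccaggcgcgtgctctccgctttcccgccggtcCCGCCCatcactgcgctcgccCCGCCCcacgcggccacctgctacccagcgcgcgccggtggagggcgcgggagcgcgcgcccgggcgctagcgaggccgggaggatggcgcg
Kpnb1: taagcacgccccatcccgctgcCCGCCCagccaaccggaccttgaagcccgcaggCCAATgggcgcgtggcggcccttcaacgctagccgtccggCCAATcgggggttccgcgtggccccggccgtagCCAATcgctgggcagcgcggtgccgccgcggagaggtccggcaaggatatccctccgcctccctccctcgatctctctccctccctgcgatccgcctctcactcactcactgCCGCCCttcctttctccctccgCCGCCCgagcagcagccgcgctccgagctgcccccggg
The Kpnb1 window held 3 CCAAT boxes and 3 GC boxes, the Nup210 window 2 GC boxes, and the Ndc1 window 1 GC box. None of these letters occurred in the Pom121 window. In RefSeq 40 of the 49 genes had a window, 47 windows in all. The GC box matched 31 of these (66.0%, against 35.7% of 32851 windows of all genes), the CCAAT box 23 (48.9%, against 37.4%), the NRF1 core 8 (17.0%, against 7.76%), the E-box 7 (14.9%, against 7.15%) and the TATA box 4 (8.51%, against 13.6%). The ER stress element matched 0.119% of all windows and no member window. These are letter matches and not bound sites.

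The outer ring, or Y complex, is the scaffold that coats the pore on both faces. None of its 19 tested probe sets passed, 16 of them had a negative difference, and the median was -0.30. At 11 of the 19 knockout libraries 2 and 3 were the 2 lowest, and without them the median was -0.04. Taking the brightest probe set of each gene, the median was -0.34 with these libraries and -0.13 without them. Nup85, a Y complex subunit, had signals of 4062, 3092, 2873, 4993 and 3659 in knockout libraries, against 5972 and 5416 in wild type libraries. Every knockout library lay below both wild type libraries, by a difference of -0.63 (SE 0.27, 95% interval -1.24 to -0.02) with a limma adjusted p = 0.575. Without knockout libraries 2 and 3 the difference was -0.43. Its other probe set stood at -0.53, with knockout library 4 between the wild type libraries.

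Nup133 and Nup107, which join at the stem of the Y, likewise had every knockout library under the lower wild type library. Nup133 had 5615, 3493, 3499, 6438 and 6040, against 6700 and 6802 in wild type libraries (-0.48, SE 0.31, limma adjusted p = 0.596). Nup107 had 3712, 2979, 2861, 3676 and 3321, against 3966 and 4396 in wild type libraries (-0.34, SE 0.23, limma adjusted p = 0.608). At both genes knockout libraries 2 and 3 were the lowest, and without them the differences were -0.16 for Nup133 and -0.23 for Nup107. The other 5 tested probe sets of Nup133 overlapped between the groups and ran from -0.52 to 0.38. Nup43, a peripheral subunit of the complex, overlapped between the groups at -0.48 (-0.13 without these 2 libraries), as did Nup37 (-0.23) and Seh1l (-0.07), although a dim probe set of Seh1l had 267, 417, 438, 406 and 326 in knockout libraries, against 251 and 244 in wild type libraries (0.52). Nup160, at the centre of the Y, was the exception at 0.18.

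The inner ring nucleoporins surround the central channel. Nup93, which holds the inner ring together, had 5163, 3851, 4190, 6548 and 5756 in knockout libraries, against 6911 and 6208 in wild type libraries (-0.39, SE 0.26, limma adjusted p = 0.606), and stood at -0.18 without knockout libraries 2 and 3. Nup155, an inner ring adaptor required for pore assembly, had 3122, 5152, 5357, 3033 and 3259, against 2170 and 2645 in wild type libraries. Each knockout library exceeded the higher wild type library, and most so 2 and 3 (0.68, SE 0.31, 95% interval -0.02 to 1.38, limma adjusted p = 0.575; 0.39 without those 2 libraries). Another probe set of Nup155 had 1186, 2677, 2637, 1437 and 1472, against 1692 and 1719 in wild type libraries, so that only knockout libraries 2 and 3 were high there (0.06). Nup205 and Nup188, related scaffold proteins that bind Nup93, stood at -0.06 and -0.22, and Nup205 had signals of 4054 to 5390 in knockout libraries, against 4554 and 5152 in wild type libraries.

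On the cytoplasmic side, Nup214, an FG nucleoporin at which export complexes are released, had 1700, 1039, 1203, 1580 and 1436 in knockout libraries, against 2314 and 1856 in wild type libraries. No knockout library reached either wild type library (-0.59, SE 0.29, limma adjusted p = 0.575). Its partner Nup88 overlapped, with 5175, 3595, 3176, 6197 and 4793 in knockout libraries, against 5039 and 5811 in wild type libraries (-0.28, SE 0.30, limma adjusted p = 0.727). Without knockout libraries 2 and 3 the difference was -0.40 for Nup214 and -0.01 for Nup88. Rae1, an mRNA export factor that binds Nup98, stood at -0.40, and at -0.18 without those libraries. The other tested probe set of Rae1, a dim one, stood at 0.36, with knockout libraries 2 and 3 the highest. In the nuclear basket, Nup153 had 5966, 5275, 5847, 5363 and 6793, against 4468 and 5994 in wild type libraries (0.17, SE 0.23, limma adjusted p = 0.782). Nup50, a basket protein that helps to recycle importin alpha, stood at -0.16, and its 3 tested probe sets ranged from -0.75 to 0.04.

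Nup62, the FG protein that fills the central channel together with Nup54, was measured by 5 probe sets that did not move alike. Its probe set with the highest mean signal had 10045, 8279, 7727, 10155 and 7514 in knockout libraries, against 10284 and 9578 in wild type libraries (-0.19, SE 0.21, limma adjusted p = 0.734). A dim one had 157, 204, 232, 188 and 224, against 456 and 489 in wild type libraries. The knockout libraries were all lower there, and this was the lowest difference of any tested member (-1.17, SE 0.25, 95% interval -1.72 to -0.61, limma adjusted p = 0.575).

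A further, brighter Nup62 probe set pointed upwards, with 4545, 3124, 2964, 5105 and 4213 in knockout libraries, against 2925 and 2008 in wild type libraries. All 5 knockout libraries were higher (0.68, SE 0.30, limma adjusted p = 0.575). Neither at this nor at the dim probe set were knockout libraries 2 and 3 the furthest from the wild type libraries. The remaining 2 stood at -0.49 and 0.14 and overlapped, and at both of them knockout libraries 2 and 3 were the lowest. In RefSeq the span of Nup62 overlaps those of Atf5 and Il4i1b, and which transcripts each probe set reads was not tested. No direction is therefore given for Nup62. Nup98, a mobile FG nucleoporin made as a precursor with the Y complex protein Nup96, also disagreed between its probe sets (-0.53 and 0.51), and Nup54 ranged from -0.15 to 0.25 over 5 probe sets.

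**Figure D4:**
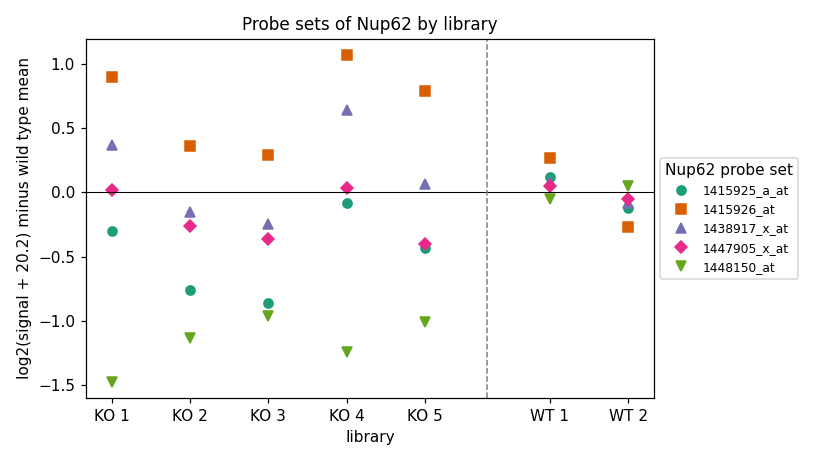
The 5 probe sets of Nup62 in each library, as log2(signal + 20.2) minus the wild type mean; each symbol is 1 probe set. The dim probe set (green triangles) lies below 0 in all 5 knockout libraries (157 to 232 units, against 456 and 489 in wild type libraries) and the one shown by orange squares lies above 0 in all 5 (2964 to 5105, against 2008 and 2925).

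The importin alpha proteins read the classical nuclear localization signal and hand the cargo to importin beta. Kpna2, the importin alpha known as the main form of mouse embryonic stem cells, had signals of 14323, 9273, 9225, 15193 and 12436 in knockout libraries, against 14753 and 15902 in wild type libraries. Knockout libraries 2 and 3 were the lowest, and knockout library 4 lay between the wild type libraries (-0.37, SE 0.25, 95% interval -0.93 to 0.19, limma adjusted p = 0.603). Without knockout libraries 2 and 3 it stood at -0.14. Kpna6 showed the same 2 libraries low, with 1509, 597, 518, 1798 and 1562, against 1632 and 1556 in wild type libraries (-0.58, SE 0.51, limma adjusted p = 0.675), and without them it stood at 0.02. Kpna1, known to rise when mouse stem cells turn to neurons, stood at -0.22, and its 5 probe sets ranged from -0.61 to -0.18. Kpna4 stood at -0.08 and Kpna3 at 0.24, the only positive importin alpha by its brightest probe set. The 3 Kpna3 probe sets had positive differences (0.24 to 0.46) and overlapped between the groups, and the brightest stood at -0.20 without wild type library 1.

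Kpnb1, importin beta, is the receptor that carries importin alpha and its cargo through the pore. It had signals of 8460, 4252, 4717, 10300 and 8131 in knockout libraries, against 10539 and 9591 in wild type libraries. Knockout libraries 2 and 3 were below every other library, and knockout library 4 lay between the wild type libraries (-0.57, SE 0.36, 95% interval -1.37 to 0.23, limma adjusted p = 0.592). Without knockout libraries 2 and 3 the difference was -0.17. The gene's 4 probe sets all had negative differences, from -0.86 to -0.51, and at 2 of them no knockout library reached the wild type libraries. The first of these had 5196, 2358, 2682, 7502 and 6876, against 8059 and 8019 in wild type libraries (-0.86, SE 0.46, limma adjusted p = 0.575), and stood at -0.32 without knockout libraries 2 and 3. At the second the gap was slight, with 4055 in knockout library 4 against 4058 in wild type library 2.

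Ipo5, an import receptor of ribosomal proteins, had 10533, 4707, 4881, 10023 and 9210 in knockout libraries, against 10107 and 9681 in wild type libraries. Only knockout libraries 2 and 3 were low (-0.42, SE 0.36, limma adjusted p = 0.674), and without them the difference was 0.0023. Ipo4, a histone importer, had both probe sets negative (-0.60 and -0.41), and at the first there was no overlap, with 1834, 1235, 1318, 1807 and 1637 in knockout libraries, against 2950 and 1884 in wild type libraries. Ipo13, which carries cargo in both directions, stood at -0.48, Ipo8 at -0.27, Ipo11 at -0.26, Tnpo3, the importer of splicing factors, at -0.26, and the histone importer Ipo9 at -0.10. The 3 tested probe sets of Tnpo3 ranged from -0.26 to 0.26. Tnpo2 stood at 0.03. Several of these rested on 1 wild type library: without wild type library 1, Ipo13 stood at -0.09 and the probe sets of Ipo4 at -0.28 and -0.09, and without wild type library 2, Ipo13 stood at -0.88 and those of Ipo4 at -0.92 and -0.73.

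Ipo7, another receptor of ribosomal proteins and histone H1, was set by the spread of the wild type libraries: it had 7453, 5497, 5806, 5851 and 6764 in knockout libraries, against 3251 and 8597 in wild type libraries (0.24). Without wild type library 1 it stood at -0.46, and without wild type library 2 at 0.93. Tnpo1, the receptor of PY localization signals, differed by probe set. The brightest had 3147, 3263, 3568, 4596 and 5042, against 2913 and 3397 in wild type libraries (0.29, SE 0.27, limma adjusted p = 0.691). Another had 1211, 594, 586, 1085 and 1239, against 1545 and 1548 in wild type libraries, with no overlap (-0.78, SE 0.38, limma adjusted p = 0.575), and stood at -0.39 without knockout libraries 2 and 3.

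The 6 export receptors had a median difference of -0.11. Xpo1, the receptor of leucine-rich export signals, had 9925, 7992, 8370, 8107 and 9954 in knockout libraries, against 7037 and 11276 in wild type libraries. All 5 knockout libraries lay between the wild type libraries (-0.01, SE 0.24, 95% interval -0.55 to 0.52, limma adjusted p = 0.987). Cse1l, which returns importin alpha to the cytoplasm, stood at -0.05, Xpo5, the exporter of microRNA precursors, at -0.17, and the actin exporter Xpo6 at -0.18. Xpo7 departed from these in knockout libraries 2 and 3, with 5982, 2774, 2819, 6888 and 5970, against 6326 and 6564 in wild type libraries (-0.50, SE 0.40, limma adjusted p = 0.648). Its other 2 tested probe sets had the same 2 libraries lowest. Without those libraries Xpo7 stood at -0.04. Xpo4 had positive differences at its 3 probe sets, from 0.13 to 0.95. At the lowest and the highest of these knockout libraries 2 and 3 were the 2 highest, and the differences stood at 0.02 and 0.55 without them.

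Each of the 4 genes of the Ran cycle had a negative difference, at all 10 tested probe sets, without any passing. At 8 of these knockout libraries 2 and 3 were the 2 lowest, and without them the median of the 10 was -0.11, against -0.21 with them. Among the 4 genes the differences were then -0.46 for Rangap1, -0.39 for Rcc1, -0.14 for Ranbp1 and -0.12 for Ran. Rangap1, which stimulates GTP hydrolysis by Ran in the cytoplasm, had 1381, 864, 861, 1946 and 1423 in knockout libraries, against 2438 and 1913 in wild type libraries (-0.80, SE 0.36, 95% interval -1.62 to 0.02, limma adjusted p = 0.575). Knockout library 4 was just above wild type library 2. The other Rangap1 probe sets stood at -0.15 and -0.05, and at 0.41 and 0.35 without wild type library 1. Rcc1, the chromatin-bound exchange factor that loads Ran with GTP, had 1505, 728, 833, 988 and 1375, against 2208 and 1255 in wild type libraries (-0.66, SE 0.37, limma adjusted p = 0.577). The groups overlapped, since knockout libraries 1 and 5 were above wild type library 2. Rcc1 stood at -0.26 without wild type library 1 and at -1.07 without wild type library 2.

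Ranbp1, which works with Rangap1 at the cytoplasmic face, had 15203, 7393, 7402, 12544 and 10526 in knockout libraries, against 14340 and 13464 in wild type libraries (-0.45, SE 0.30, limma adjusted p = 0.605). Ran itself had 24304, 14463, 15008, 17531 and 15428, against 21351 and 19385 in wild type libraries. The highest library of all 7 was a knockout library, and the difference was small beside the spread (-0.26, SE 0.23, 95% interval -0.77 to 0.26, limma adjusted p = 0.679). The 5 tested Ran probe sets ranged from -0.26 to -0.04, and knockout libraries 2 and 3 were the lowest at each of them. Without those 2 libraries the other 4 probe sets of Ran lay between 0.0003 and 0.11. All but 1 of these carry the array maker's suffix for probes that can match other transcripts, so Ran may share signal with related sequences.

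**Figure D5:**
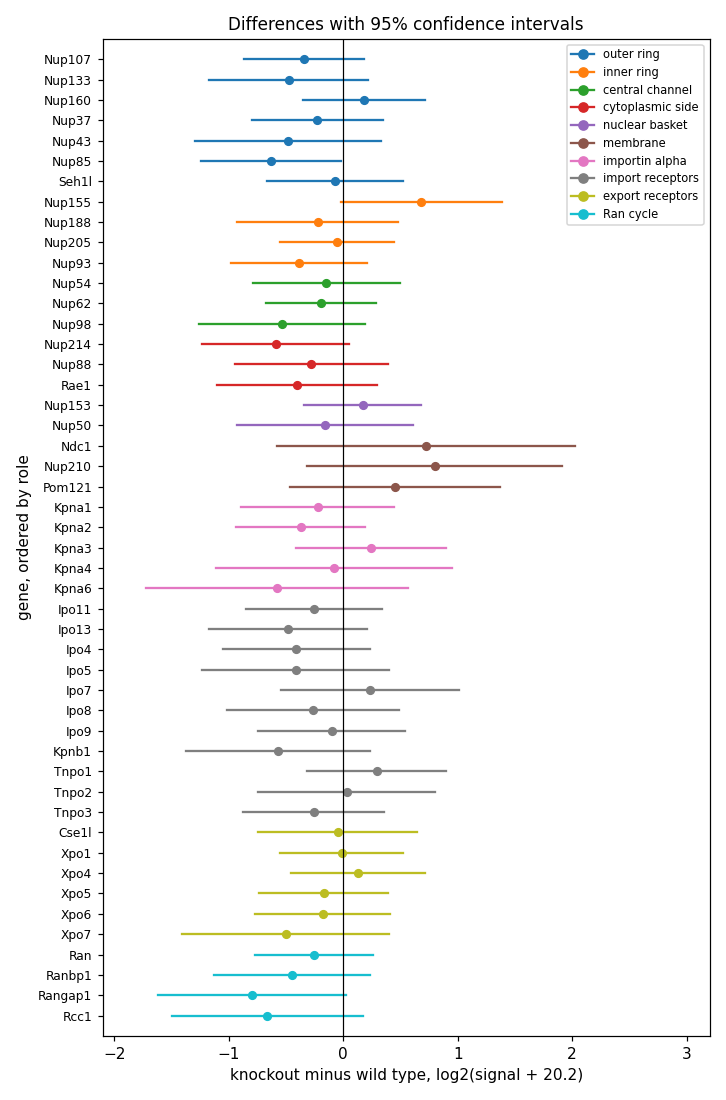
Knockout minus wild type differences on the log2(signal + 20.2) scale for 1 probe set of each of 48 genes, with limma's 95% confidence intervals (lines), coloured and ordered by role. Points run from -0.80 for Rangap1 to 0.80 for Nup210, and the widest interval is that of Ndc1, from -0.58 to 2.03.

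Groups that do not overlap were no more frequent among the members than elsewhere. All 5 knockout libraries lay on 1 side of both wild type libraries at 12 of 118 member probe sets (10.2%), against 13.6% of all tested probe sets. Of the 12, 9 were lower (7.63%, against 5.85%) and 3 higher (2.54%, against 7.8%). The higher ones belonged to Nup155, Nup62 and Seh1l, and the lower ones to Nup85, Nup107, Nup133, Nup214, Nup62, Ipo4, Kpnb1 (2 probe sets) and Tnpo1. The count was 31 without knockout library 4 (26.3%, against 23.1% of all tested probe sets), 38 without wild type library 1 (32.2%, against 32.9%) and 56 without wild type library 2 (47.5%, against 50.1%).

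Agreement between probe sets of a gene limits how far a single one can be read. Of 36 genes with several tested probe sets, 15 had only negative differences, 6 only positive ones and 15 both signs. Both signs were found at Nup62, Tnpo1, Nup98, Nup133, Seh1l, Nup50, Rae1, Tnpo3, Nup54, Ipo7, Nup188, Xpo1, Nup205, Tnpo2 and Kpna4. The widest spread was that of Nup62, at 1.85, and Ndc1 (1.09), Tnpo1 (1.07) and Nup98 (1.04) followed. The 95% intervals of the 48 genes had a median half-width of 0.67. They lay within 1 of 0 on the log2 scale for 26 genes and not for the other 22.

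Pathway genes outside the symbol rule were read in the same fit. Of 19 listed, 15 had a probe set with 1 symbol and all 15 were tested. With limma 0 passed, where 0.0296% of all tested probe sets did, so a count of 0 says little. An unadjusted limma p under 0.05 was reached by 1 of the 15, and by 8.42% of all tested probe sets. Their median difference was -0.01, with 9 negative, where 44.1% of all tested probe sets were. Groups did not overlap at 2 higher genes (Ddx19b and Nupl2) and 3 lower ones (Aaas, Sec13 and Nxt1) of the 15. Over all tested probe sets these shares were 7.8% and 5.85%. Ddx19b, a helicase of mRNA export, had 1188, 1878, 2059, 1539 and 1288 in knockout libraries, against 746 and 1010 in wild type libraries (0.83, SE 0.31, limma adjusted p = 0.575). Aaas, a pore protein bound by Ndc1, had 2809, 1465, 1655, 2410 and 2592, against 3349 and 3006 in wild type libraries (-0.58, limma adjusted p = 0.575). Sec13, shared by the Y complex and COPII coats, had 2511, 1523, 1470, 2640 and 2764, against 4093 and 2788 (-0.68, limma adjusted p = 0.575), with no knockout library reaching either wild type library.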

How the data were processed

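Labelled RNA of 7 libraries was hybridised to whole-genome Affymetrix mouse arrays. The deposited values are signal intensities on a linear scale, made by the authors with MAS5 per the submitters' processing notes, with the version not given in the sources used here; trimmed means of 499.28 to 499.9 were the same on every array to within that range. Each value was turned into log2(signal + 20.2), 20.2 being the 20th percentile of all values. Of 45101 probe sets, 64 controls were set aside and 27022 with a mean above the 40th percentile were fitted across all 7 libraries (R 4.3.3, limma 3.58.1, moderated with a mean-variance trend, Benjamini-Hochberg adjusted p under 0.05), first tested on simulated data. The number of arrays limits the precision. The platform annotation gave 34958 probe sets 1 symbol, 932 several and 9211 none; chromosomes and promoters came from RefSeq GRCm38.p6.

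A gene stands for its probe set with the highest mean. Values in every library were due, by rule, for the brightest gene of each role and up to 3 genes per role whose groups did not overlap; those of other genes were chosen after they were seen. The members and lists were chosen with earlier results of these data known. Alternatives were other scalings, filters, pseudocounts, variance models and weights, a replicate block, 1 probe set per gene, and fits without single libraries or without knockout libraries 2 and 3.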

Additional observations from a re-analysis of the deposited data

How the results depend on the processing

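In all 20 alternatives 0 members passed with limma, and the median member difference stayed negative, between -0.27 (arrays centred on their medians) and -0.0021 (knockout libraries 2 and 3 left out), and between -0.23 and -0.11 with single libraries left out. Centring shifted the median of all probe sets by -0.12. The count of members without overlap was 5 with 1 probe set per gene (10.4%, against 13.8% of all genes tested), and 12 to 56 with single libraries left out (10.2% to 47.5%, against 14.5% to 50.1% of all tested probe sets). Calr lay between -3.78 and -3.52 with single libraries left out, and it missed the threshold without wild type library 1 (-3.58, limma adjusted p = 0.254) or 2 (-3.78, limma adjusted p = 0.129); with 1 wild type library left, that library is assumed to vary like the knockout libraries.

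Some directions turned. With array weights Cse1l was 0.090, Kpna4 0.18, Nup50 0.017 and Xpo1 0.047. With quantile normalization Cse1l was 0.10, Nup205 0.068, Tnpo2 -0.036 and Xpo1 0.16, and with centring Tnpo2 was -0.089. With knockout libraries 2 and 3 averaged as 1 library, chosen after seeing the data, Cse1l was 0.051, Kpna4 0.10 and Xpo1 0.014. With these libraries left out, or as a batch term, Cse1l was 0.22, Ipo5 0.0023, Ipo8 0.041, Ipo9 0.063, Kpna1 0.020, Kpna4 0.39, Kpna6 0.022, a probe set of Ndc1 -0.29, Nup50 0.18, Nup54 0.087, Seh1l 0.048 and Xpo1 0.060. With single libraries left out the ranges were -0.35 to 0.33 for Xpo1, -0.42 to 0.33 for Cse1l, -0.47 to 0.31 for Kpna4, -0.25 to 0.31 for Tnpo2, -0.46 to 0.93 for Ipo7, -0.42 to 0.22 for Ipo9, -0.55 to 0.037 for Ipo11, -0.20 to 0.68 for Kpna3, -0.041 to 0.38 for Nup153, -0.016 to 0.38 for Nup160, -0.61 to 0.17 for Nup188, -0.14 to 0.033 for Nup205, -0.36 to 0.013 for Xpo5, -0.43 to 0.074 for Xpo6, -0.35 to 0.056 for Nup54 and -0.30 to 0.16 for Seh1l. The cause was not tested.

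Whether replicate numbers pair the samples cannot be told from the values. The deviations of same-numbered libraries from their group means correlated at 0.11 and -0.01. With 2 wild type libraries these deviations are mirror images, so the differently numbered pairs gave -0.11 and 0.01 by construction. Most knockout libraries have no same-numbered wild type library, so a replicate block rests on few arrays. With the replicate block 0 members passed, and the median member difference was -0.16.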
